A study of Homo sapiens with 4 samples.

Results

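NRF2 targets and detoxifying enzymes were followed in OVCA420 cells, an epithelial ovarian cancer cell line, during treatment with TGF-β1. The group holds 39 genes of the 33694 in the count matrices, and they were matched by symbol (40 rows, of which a duplicate row of *AKR1C3* held 0 UMIs). The members were chosen by their log2 ratios of the treated libraries to Ctrl, already known from these cells, above all the fall of *AKR1B10*, *ALDH3A1* and *GSTA1*, so their levels and ratios below are descriptions and carry no test. Cells were left untreated (Ctrl) or were given TGF-β1 at 10 ng/mL for 1, 3 or 7 days and collected together, and droplet-based scRNA-seq gave 1 library per time point (1-day, 3-day and 7-day). TGF-β1 is a cytokine used here to induce the epithelial-mesenchymal transition (EMT). OVCA420 is a single cultured line, with no genetic change introduced in any library, and the treated cells were passaged as needed with fresh cytokine in renewed medium. Because every condition is 1 library, a difference between time points cannot be told apart from a difference between libraries.

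NRF2, the product of *NFE2L2*, is a transcription factor that KEAP1 binds in the cytoplasm and marks for degradation, and oxidants or electrophiles that modify KEAP1 let NRF2 reach the nucleus. There it pairs with a small MAF protein on the antioxidant response element and raises genes that make glutathione and NADPH, reduce quinones, carbonyls and aldehydes, attach glutathione or sugar acids to toxic molecules and pump the products out of the cell. Many carcinomas keep this program high, and several of its enzymes can also inactivate anticancer drugs. The gene group therefore spans the regulators, the reductases and dehydrogenases, the glutathione and thioredoxin systems, the enzymes of NADPH supply, conjugation and efflux, and the heme-degrading enzyme encoded by *HMOX1*.

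Levels are given as CPM, the unique molecular identifiers (UMIs) of a gene per 1000000 UMIs of its library, both added up over cells, and ratios are log2 of the CPM over that in Ctrl. Bracketed or stated intervals are 95% and cover counting error only, since a single library gives no measure of the spread between cultures. The analysis held 933 Ctrl, 937 1-day, 705 3-day and 569 7-day cells, with a median of 30270 to 43553 UMIs per cell, and these are part of each library (3144 cells of 10710 barcodes listed). Each pair of libraries shared 1 to 7 cell barcodes. All 9 epithelial markers had UMIs in every library, with a summed level of 4053 to 5908 CPM, although *MUC16* (0.118 to 2.97 CPM) and *PAX8* (0.121 to 0.333 CPM) were close to 0. The summed level of 4 leukocyte markers was 0.0788 to 0.733 CPM, of 4 fibroblast and smooth muscle markers under 2 CPM and of 3 endothelial markers 0.249 to 5.37 CPM, the last from *CDH5* in Ctrl, with *PECAM1* and *CLDN5* at 0 there. The 4 TGF-β1 response genes rose from a summed 100.3 CPM in Ctrl to 3172, 2918 and 1821 CPM at 1-day, 3-day and 7-day. Cells called in G1 made up 23.2% of Ctrl and 80.7%, 47.2% and 37.3% of the treated cells in order of time, and the median mitochondrial share was 8.31%, 7.42%, 6.22% and 6.26%. Ratios, gene counts and medians were recomputed within G1 cells and with other mitochondrial limits. Levels per cell, shares of cells with a UMI and correlations were not. The part of either measure in the values below was not tested further.

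The antioxidant response element has the core TGACNNNGC, which was looked for on both strands in the 250 bases before each RefSeq transcript start (GRCh38.p14), where 31 of the 39 genes had an entry and *AKR1B10*, *ALDH3A1*, *CBR3*, *SLC7A11*, *GSR*, *PRDX1*, *ABCC3* and *HMOX1* did not. The core was present for 11 of the 31 genes (35.5%), against 13.2% of the 27305 genes with a window, and for 12 of their 42 windows (28.6%), against 10.9% of 35116 windows. Because the list was drawn up around NRF2 targets, a higher share may be built into it. The 27305 genes were not limited to those expressed in these cells. The 11 genes were *CBR1*, *EPHX1*, *GCLM*, *GPX2*, *GSTA4*, *GSTP1*, *KEAP1*, *ME1*, *PGD*, *TXNRD1* and *UGT1A6*. The form TGACTCAGC, which also contains the AP-1 letters TGACTCA, was found for *ME1* and *GSTP1* and in 0.456% of all windows. The stretches below, 29 bases each and written along the strand of the gene, show the match in capitals for *ME1* (chr6:83431170-83431198, minus strand), *GSTP1* (chr11:67583736-67583764, plus strand), *GCLM* (chr1:93909446-93909474, minus strand), *GPX2* (chr14:64942849-64942877, minus strand), *CBR1* (chr21:36069855-36069883, plus strand) and *TXNRD1* (chr12:104215670-104215698, plus strand). They are shown as examples because these genes come from several, though not all, of the roles in the group. As given further on, the genes range from a steep fall to a level above Ctrl at 7-day.
ME1: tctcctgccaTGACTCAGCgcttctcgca
GSTP1: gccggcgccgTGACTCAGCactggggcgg
GCLM: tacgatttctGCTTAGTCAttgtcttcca
GPX2: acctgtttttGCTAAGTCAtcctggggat
CBR1: tgcgggttctGCAAAGTCAggctagctgg
TXNRD1: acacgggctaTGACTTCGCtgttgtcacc
In *GCLM*, *GPX2* and *CBR1* the core lies on the opposite strand. The *GSTP1* and *GCLM* stretches overlap an exon of their own gene in GENCODE 44, and the *CBR1* stretch overlaps an exon of *CBR1-AS1*. Along the gene, the base of the core farthest from the RefSeq start lay 137 bases before it in *ME1*, 122 in *GPX2* and 99 in *TXNRD1*. A match is a description of letters and not evidence of binding.

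Most genes of the group had lower levels in the treated libraries than in Ctrl, *HMOX1* being the clearest exception. Of the 39 genes, 12 were at least 2-fold below Ctrl at 1-day, then 25 and 27 at the later time points. Over the 9659 genes with a mean of at least 5 CPM, the same call was made for 8.52% at 1-day, 5.25% at 3-day and 4.91% at 7-day. *HMOX1* was the 1 member at least 2-fold above Ctrl at each time, a call made for 9.25%, 9.92% and 11.3% of all genes, and 26, 13 and 11 members lay within 2-fold. Of the 39 members, 37 reached the mean of 5 CPM, and *GSTA4* and *UGT1A6* did not. The median log2 ratio of the 39 genes was -0.65, -1.18 and -1.37 at 1-day, 3-day and 7-day, where that of all genes was -0.06, 0.04 and 0.10. Without *AKR1B10*, *ALDH3A1* and *GSTA1*, the other 36 members had medians of -0.60, -1.09 and -1.32 and ranged at 7-day from -3.41 (*CBR1*) to 1.75 (*HMOX1*), with 9, 22 and 24 of them at least 2-fold below Ctrl. The members nearest to the 2-fold line at 7-day were *PRDX1* (-1.01) and *TKT* (-1.03) just past it and *GCLM* and *MGST1* (-0.96 each) just short of it.

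**Figure D1:**
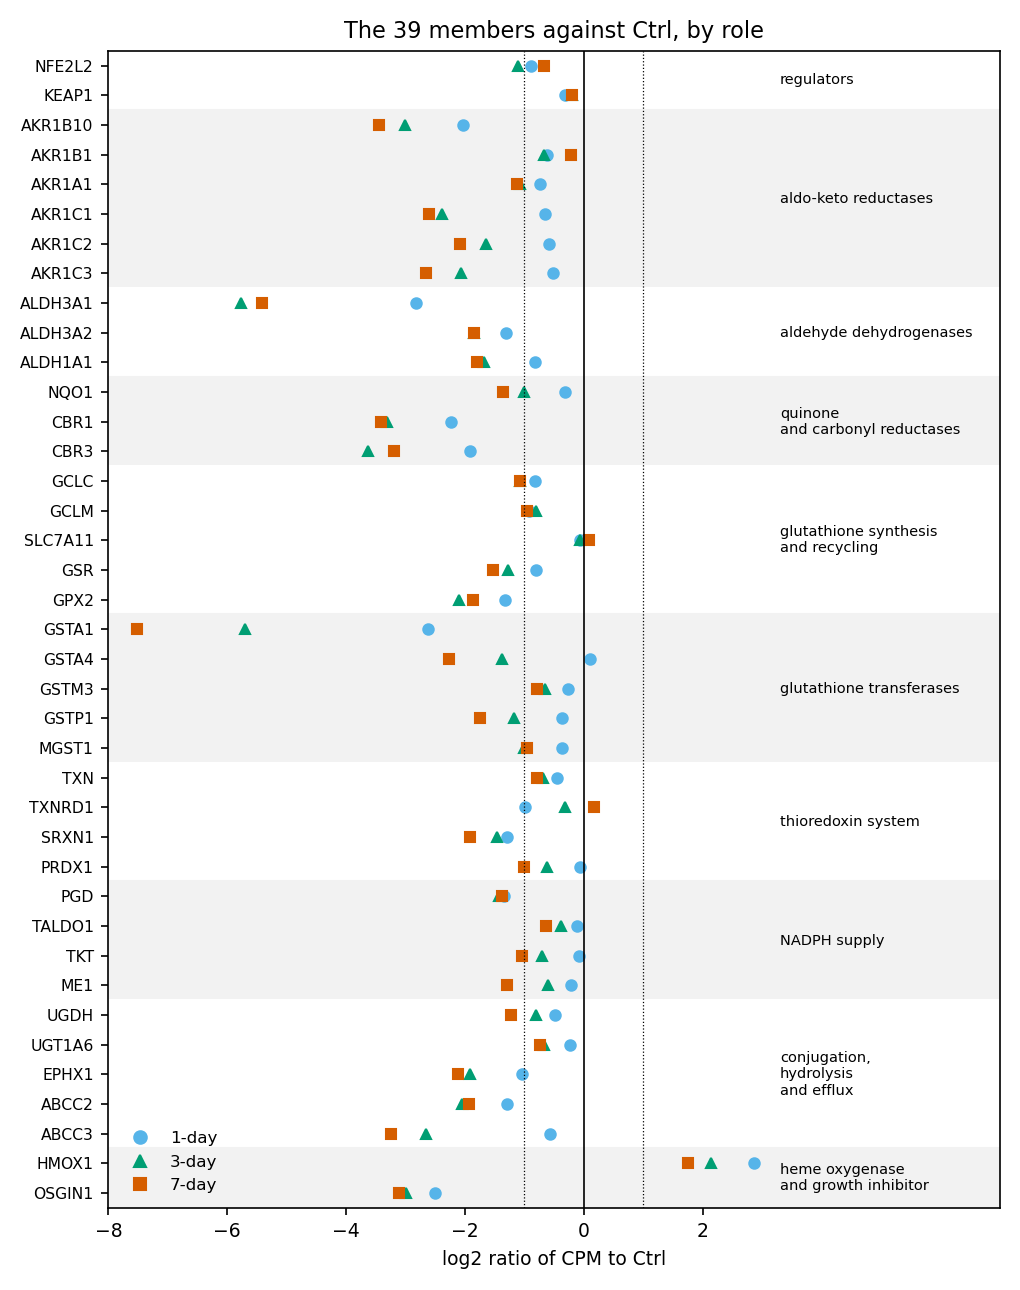
Log2 ratio of CPM to Ctrl of each of the 39 genes at 1-day (circles), 3-day (triangles) and 7-day (squares), ordered by role, with dotted lines at 2-fold. *GSTA1* reached -7.52 at 7-day and *HMOX1* was the only member past 2-fold above Ctrl, with 2.87 at 1-day.

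**Figure D2:**
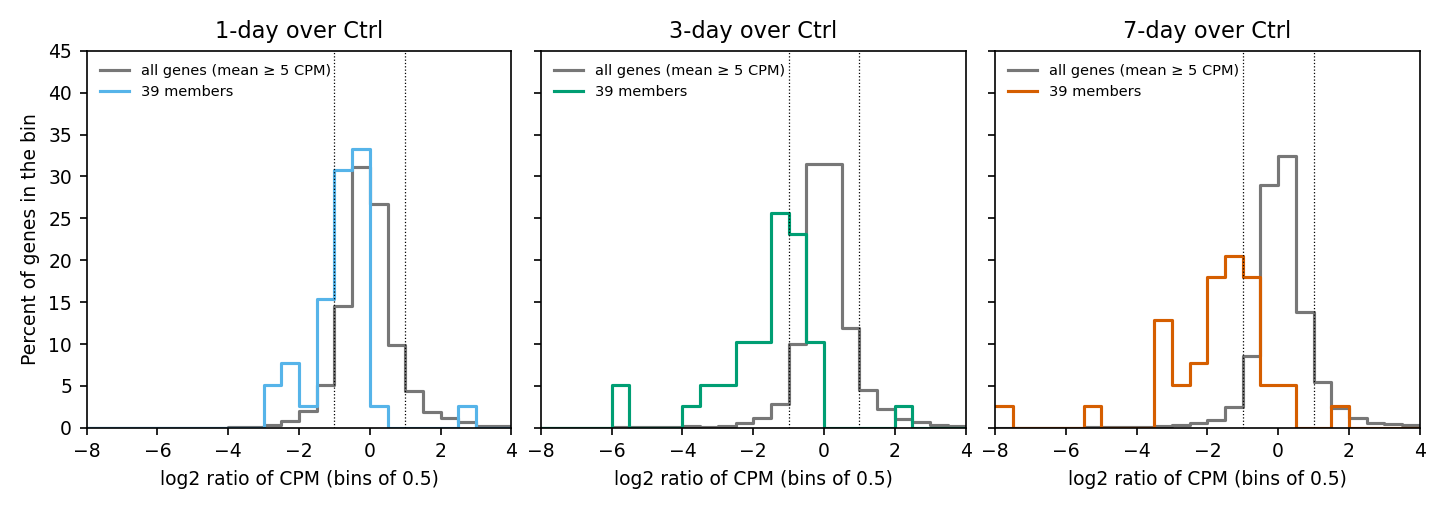
Distribution of the log2 ratio to Ctrl over the 9659 genes with a mean of at least 5 CPM and over the 39 members, at each treated time point, as a percentage of each set. The members' median moved from -0.65 at 1-day to -1.37 at 7-day over all 39 genes, while that of all genes lay between -0.06 and 0.10.

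Together the 39 genes took 1.91% of all UMIs in Ctrl and then 1.14%, 0.759% and 0.688%, which corresponds to 613, 401, 346 and 307 UMIs per cell. The summed level of the other 36 genes went from 15932 CPM in Ctrl to 10653, 7228 and 6613 CPM. *AKR1B10* supplied 14.9% of the group's UMIs in Ctrl, more than any other member, whereas *TXN*, which encodes thioredoxin, supplied the most at 1-day (13.0%), 3-day (16.7%) and 7-day (17.1%); these are shares of UMIs from 3′ tags, without correction for length. Ctrl was the highest library for 35 of the 39 genes. The 7-day library was the lowest for 25, the 3-day library for 11 and the 1-day library for 2, and 23 genes were lower at each time point than at the one before. These counts go by the order of levels alone and were not made over all genes. Some of the steps lie within counting error, such as that of *OSGIN1* from 3-day to 7-day (interval of the log2 ratio -0.32 to 0.10).

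*AKR1B10* encodes an aldo-keto reductase that reduces retinal and reactive aldehydes, and it lies at chr7:134527567-134541412 (plus strand, GRCh38). Its level was 2842 CPM in Ctrl, then 699, 353 and 261 CPM at 1-day, 3-day and 7-day. Each library was thus below the one before it, and the largest step was from Ctrl to 1-day. The log2 ratio to Ctrl was -2.02, -3.01 and -3.44 (interval at 7-day -3.48 to -3.41), and the 7-day value was the 39th lowest of the 9659 genes.

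*ALDH3A1* encodes an aldehyde dehydrogenase that oxidizes aromatic and lipid-derived aldehydes (chr17:19737984-19748943, minus strand). It was measured at 159 CPM in Ctrl, then 22.6, 2.92 and 3.74 CPM at 1-day, 3-day and 7-day. The 3-day and 7-day libraries held nearly none of it, with 94 and 95 UMIs, and the interval of the log2 ratio between these libraries (-0.07 to 0.78) includes 0. Relative to Ctrl the log2 ratio was -2.82, -5.77 and -5.41 (interval at 7-day -5.72 to -5.12), the 14th lowest at 7-day.

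*GSTA1* encodes an alpha-class glutathione transferase, which attaches glutathione to electrophiles and lipid peroxides (chr6:52791371-52803860, minus strand). The level was 123 CPM in Ctrl, then 19.97, 2.36 and 0.670 CPM at 1-day, 3-day and 7-day, the last from 17 UMIs in 569 cells. Unlike *ALDH3A1*, it was lower still at 7-day than at 3-day (log2 ratio -1.82, interval -2.67 to -1.05). Its log2 ratio to Ctrl was -2.62, -5.70 and -7.52 (interval at 7-day -8.30 to -6.84), the 3rd lowest of the 9659 genes at 7-day. In thinned cells the 7-day ratio of *GSTA1* was -8.23, within that interval. It rests on a mean of only 0.00729 UMIs per cell over 549 cells, so very few UMIs set it. The sequence before its start, which held 0 matches to TGACNNNGC, is shown as the promoter of the steepest fall in the group (206 bases, chr6:52803861-52804066, minus strand).
GSTA1: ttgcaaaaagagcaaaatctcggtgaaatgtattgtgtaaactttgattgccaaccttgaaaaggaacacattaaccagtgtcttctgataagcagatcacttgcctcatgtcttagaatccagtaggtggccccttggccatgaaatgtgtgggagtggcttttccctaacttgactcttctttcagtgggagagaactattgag

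**Figure D3:**
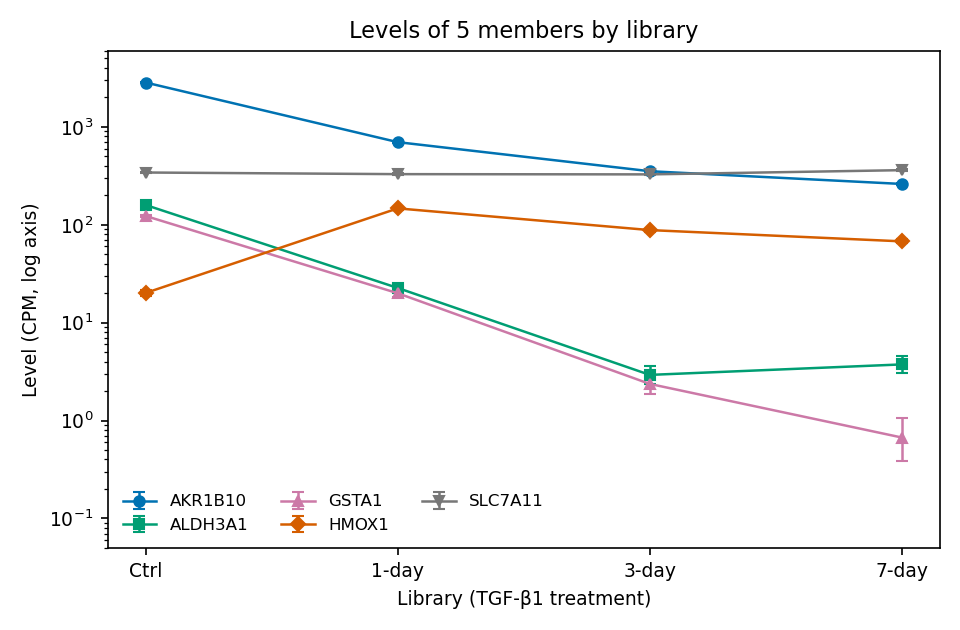
Level in CPM (log axis) of *AKR1B10*, *ALDH3A1*, *GSTA1*, *HMOX1* and *SLC7A11* in each library, with 95% Poisson error bars that cover counting error only. *GSTA1* went from 123 to 0.670 CPM, *HMOX1* peaked at 147 CPM at 1-day and *SLC7A11* stayed between 327 and 361 CPM.

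The regulators changed less than *AKR1B10*, *ALDH3A1* and *GSTA1*. *NFE2L2*, which encodes NRF2 itself, was at 117 CPM in Ctrl, then 63.7, 54.3 and 74.1 CPM at 1-day, 3-day and 7-day. It was highest in Ctrl and lowest at 3-day, and the 7-day library was above the 3-day library (log2 ratio 0.45, interval 0.35 to 0.54). Only its 3-day ratio to Ctrl passed 2-fold, at -1.11, next to -0.88 at 1-day and -0.66 at 7-day. *KEAP1*, which encodes the NRF2 inhibitor, was within 2-fold throughout, at 37.6, 30.1, 32.8 and 32.8 CPM, and its log2 ratios of -0.32 at 1-day and -0.20 at 3-day became 0.21 and 0.14 among G1 cells. The activity of NRF2 depends on its protein, which was not measured.

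Of the 6 aldo-keto reductases, 1 was at least 2-fold below Ctrl at 1-day and 5 were at 3-day and at 7-day (all genes 8.52%, 5.25% and 4.91%). *AKR1C1*, *AKR1C2* and *AKR1C3* encode hydroxysteroid dehydrogenases that also reduce drugs and aldehydes, and they lie side by side on chromosome 10. *AKR1C3* was at 1088 CPM in Ctrl, then 759, 259 and 173 CPM at 1-day, 3-day and 7-day. *AKR1C1* went from 758 to 484, 145 and 125 CPM, and *AKR1C2* from 356 to 239, 114 and 84.1 CPM. All 3 stayed within 2-fold at 1-day (log2 ratios -0.65, -0.58 and -0.52 for *AKR1C1*, *AKR1C2* and *AKR1C3*) and stood at -2.60, -2.08 and -2.65 at 7-day, so that most of their fall came between 1-day and 3-day. Their transcripts are alike, and 9.76%, 25.9% and 10.4% of the 90-base stretches in their last 500 bases also occur in another gene. Their counts are therefore less certain, and how reads from shared stretches were counted was not examined. *AKR1A1*, which encodes an aldehyde reductase, was at 78.6, 47.1, 37.4 and 36.2 CPM and just passed 2-fold at 3-day (-1.07) and 7-day (-1.12). *AKR1B1*, which encodes the aldose reductase of the polyol pathway and lies next to *AKR1B10*, did not pass it at any time. It was measured at 175, 114, 110.4 and 151 CPM, with a log2 ratio of -0.21 at 7-day.

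The 3 aldehyde dehydrogenases of the group were all past 2-fold below Ctrl at 3-day and 7-day (all genes 5.25% and 4.91%). This does not hold for the whole enzyme family, since *ALDH1A3*, outside the group and described further on, was above Ctrl. *ALDH1A1* encodes the enzyme that makes retinoic acid from retinal and is widely used as a marker of stem-like cells. It was at 719.9 CPM in Ctrl, then 408, 224 and 207 CPM at 1-day, 3-day and 7-day, lower at each step, with a log2 ratio of -1.80 at 7-day. *ALDH3A2*, which encodes the fatty aldehyde dehydrogenase, was at 39.7, 16.0, 11.1 and 11.1 CPM, with no difference between 3-day and 7-day beyond counting error (log2 ratio 0.00, interval -0.23 to 0.23). Its log2 ratio to Ctrl at 7-day, -1.84, compares with -5.41 for the nearby gene *ALDH3A1*.

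Among the quinone and carbonyl reductases, *CBR1* and *CBR3* had far lower ratios to Ctrl than *NQO1*. *CBR1*, which encodes the main cytosolic carbonyl reductase, was at 674 CPM in Ctrl, then 143, 68.3 and 63.2 CPM at 1-day, 3-day and 7-day. Its log2 ratios were -2.24, -3.30 and -3.41, the 41st lowest of all genes at 7-day. *CBR3*, its paralog on the same chromosome, was at 216, 57.6, 17.4 and 23.7 CPM. Over all cells it was lowest at 3-day (-3.63) and less low at 7-day (-3.19). Among G1 cells the 7-day ratio was -3.95, below both, so a partial return cannot be claimed for G1 cells. *NQO1* encodes the quinone reductase that is often used as the reference gene of NRF2 activity. Its level was 796 CPM in Ctrl, then 639, 396 and 310.4 CPM at 1-day, 3-day and 7-day. It was lower in each later library, and it crossed 2-fold at 3-day (-1.01) and reached -1.36 at 7-day.

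The genes of glutathione synthesis and recycling did not move as 1 block. *SLC7A11*, which encodes the cystine importer that supplies cysteine, was at 342, 329, 327 and 361 CPM. These levels were close to each other. The log2 ratios of -0.06 at 1-day and 3-day are no sign of a direction, since they turned positive when cells were thinned to equal depth or limited to G1. The 7-day ratio of 0.08 (interval 0.04 to 0.12) was small but kept its sign in the alternatives. *GCLM* and *GCLC* encode the modifier and catalytic subunits of glutamate-cysteine ligase, the rate-limiting enzyme of glutathione synthesis. *GCLM* stood at 539 CPM in Ctrl, then 283, 309 and 277, and *GCLC* at 44.2 CPM, then 24.9, 20.9 and 21.1. For both genes the treated libraries were close to each other and all below Ctrl, near the 2-fold line, with log2 ratios at 7-day of -0.96 and -1.07. Of the stretches at the 3′ end of *GCLC*, 17.0% also occur in another annotated gene, so its counts are less certain. *GSR*, which encodes the glutathione reductase, was at 167, 95.4, 68.9 and 58.2 CPM and lower at every step (-1.52 at 7-day). *GPX2* encodes an epithelial glutathione peroxidase. It fell the furthest of the 5, from 1467 CPM in Ctrl to 587, 342 and 403, with log2 ratios of -1.32, -2.10 and -1.86.

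Of the other glutathione transferases, *GSTP1* fell later and less than *GSTA1*. *GSTP1*, which encodes the pi-class enzyme abundant in carcinomas, was at 1888 CPM in Ctrl, then 1472, 834 and 562 CPM at 1-day, 3-day and 7-day. It kept falling through 7-day, with log2 ratios of -0.36, -1.18 and -1.75. *MGST1*, a membrane-bound glutathione transferase and peroxidase, was at 630.1, 490.2, 312 and 324 CPM, past 2-fold at 3-day (-1.01) but not at 7-day (-0.96). *GSTM3* (mu class) stayed within 2-fold, at 85.7, 71.5, 54.7 and 49.6 CPM. *GSTA4*, whose enzyme acts on 4-hydroxynonenal, was scarce, with 51, 60, 21 and 9 UMIs in the 4 libraries. Its log2 ratio was -2.26 at 7-day (interval -3.47 to -1.23, and -2.89 in G1 cells), and the ratio of 0.10 at 1-day has an interval that includes 0 (-0.46 to 0.67) and turned negative under thinning.

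In the thioredoxin system, *TXNRD1* was low at 1-day and then climbed past its Ctrl level. It encodes the cytosolic thioredoxin reductase, and its level was 669.5 CPM in Ctrl, then 337, 537 and 757 CPM at 1-day, 3-day and 7-day. The 1-day library was the lowest and the 7-day library the highest, so the log2 ratio to Ctrl went from -0.99 to -0.32 and then to 0.18 (interval 0.15 to 0.20). *TXN* was at 2034, 1481, 1263 and 1179.6 CPM and remained within 2-fold (-0.79 at 7-day). *PRDX1*, which encodes a peroxiredoxin that thioredoxin recycles, was at 915, 874, 599 and 454 CPM. Its 1-day level was near that of Ctrl and the sign of the difference depended on the scaling (log2 ratio -0.07, or 0.02 with median-of-ratios size factors), and it reached -1.01 at 7-day. *SRXN1* encodes sulfiredoxin, which repairs over-oxidized peroxiredoxins. It was at 13.2, 5.40, 4.79 and 3.51 CPM (-1.92 at 7-day), and 97.3% of the stretches at its 3′ end also occur in another annotated gene, so its counts are uncertain.

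For NADPH supply, *PGD* was low from 1-day on, whereas *TKT* and *ME1* passed 2-fold only at 7-day. *PGD*, which encodes the 6-phosphogluconate dehydrogenase of the pentose phosphate pathway, stood at 305 CPM in Ctrl, then 119.7, 113 and 118. The 3 treated libraries were nearly level, and its log2 ratios were -1.35, -1.43 and -1.37. *TKT* and *TALDO1* encode transketolase and transaldolase of the same pathway. *TKT* was at 584, 555, 359.8 and 286 CPM, with a 1-day log2 ratio of -0.07 that turned to 0.01 with median-of-ratios size factors and a 7-day ratio of -1.03, and *TALDO1* stayed within 2-fold, at 149, 138, 114 and 95.9 CPM. *ME1*, the gene of cytosolic malic enzyme whose start has TGACTCAGC, was at 137, 118, 90.5 and 56.4 CPM, with a log2 ratio of -1.28 at 7-day.

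Among the genes of conjugation, hydrolysis and efflux, the transporter *ABCC3* had the lowest log2 ratio at 3-day and 7-day, and *ABCC2* at 1-day (-1.29). *ABCC3* encodes an exporter of conjugated organic anions. It was at 203 CPM in Ctrl, then 136, 32.2 and 21.4 CPM at 1-day, 3-day and 7-day. Most of its fall lay between 1-day and 3-day, and its log2 ratios to Ctrl were -0.58, -2.65 and -3.24. *ABCC2*, which encodes a related exporter, was at 37.9, 15.5, 9.18 and 9.97 CPM (-1.93 at 7-day), and *EPHX1*, the gene of microsomal epoxide hydrolase, at 133, 64.6, 35.4 and 30.7 CPM (-2.11). *UGDH*, which encodes the enzyme that makes UDP-glucuronic acid for conjugation, was at 396, 283, 226 and 169 CPM (-1.23). *UGT1A6*, the gene of a glucuronosyltransferase, had 59 to 116 UMIs per library and a log2 ratio of -0.73 at 7-day (interval -1.21 to -0.27), and 74.9% of its 3′ stretches are shared with other genes of the *UGT1A* locus.

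*HMOX1* and *OSGIN1* went in opposite directions. *HMOX1* encodes heme oxygenase 1, which breaks down heme and is controlled by the repressor BACH1 as well as by NRF2. Its level was 20.1 CPM in Ctrl, then 147, 88.2 and 67.7 CPM at 1-day, 3-day and 7-day. All 3 treated libraries were above Ctrl, with the highest value at 1-day and lower ones after it. The log2 ratios to Ctrl were 2.87 (interval 2.75 to 3.00), 2.13 and 1.75, which placed it 115th, 279th and 427th from the top of the 9659 genes. *OSGIN1*, which encodes an oxidative stress-induced growth inhibitor, was at 111 CPM before treatment and 19.6, 13.9 and 12.9 CPM afterwards. It was low from 1-day on, with log2 ratios of -2.49, -2.99 and -3.10.

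The time at which genes fell differed within the group. Of the 27 genes at least 2-fold below Ctrl at 7-day, 13 had more than 50% of their 7-day log2 fall by 1-day, and 10 had less than 30% of it. The same split was not made over all genes, so it cannot be called particular to the group. The 10 include the scarce *GSTA4*, whose 1-day ratio has an interval that includes 0. The early genes included *PGD* (98.2%), *OSGIN1* (80.5%), *GPX2* (71.0%) and *CBR1* (65.5%), and the late genes included *PRDX1* (6.49%), *TKT* (7.25%), *ME1* (17.0%), *ABCC3* (17.7%), *AKR1C3* (19.6%), *GSTP1* (20.5%) and *NQO1* (23.2%). From 1-day to 3-day, 9 of the 39 genes fell at least 2-fold, among them *GSTA1* (-3.08), *ALDH3A1* (-2.95), *ABCC3* (-2.08), *AKR1C1* (-1.74) and *CBR3* (-1.73), a call made for 2.46% of all genes, and 0 rose as far (all genes 4.78%). From 3-day to 7-day only *GSTA1* did (all genes 0.911% down and 1.17% up), and the median log2 ratio of the 39 genes over that interval was -0.14, against -0.55 from 1-day to 3-day.

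Several members lie near each other in the genome. Position was not used in the choice of members, but their log2 ratios were, so similar ratios among them are partly set by the choice. Nearby genes outside the group were not compared. *CBR1* (chr21:36069941-36073166) and *CBR3* (chr21:36135079-36146562) had similar log2 ratios at 7-day, -3.41 and -3.19. *AKR1C1* (chr10:4963253-4983283), *AKR1C2* (chr10:4987775-5018031) and *AKR1C3* (chr10:5035354-5107686) lay between -2.65 and -2.08. *PRDX1* (chr1:45510914-45542732) and *AKR1A1* (chr1:45550543-45570049) had -1.01 and -1.12. For the pair *AKR1B10* and *AKR1B1* (chr7:134442356-134459284), and for *ALDH3A1* and *ALDH3A2* (chr17:19648136-19685760), the 7-day ratios were far apart, at -3.44 and -0.21 and at -5.41 and -1.84, with intervals that do not overlap. *GSTA1* (chr6:52791371-52803860) and the scarce *GSTA4* (chr6:52977948-52995304) also had unlike 7-day ratios, at -7.52 (interval -8.30 to -6.84) and -2.26 (interval -3.47 to -1.23).

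Lower levels of *AKR1B10*, and a lower mean level of the other 36 genes, were seen in most cells of each treated library. This did not hold for every member taken alone. *AKR1B10* had a median of 2576 CPM per cell in Ctrl, then 596, 275 and 169 CPM with time of treatment. The 10th to 90th percentiles ran from 1521 to 4384 CPM in Ctrl and from 42.3 to 560 CPM at 7-day, so that the bulk of the distributions did not overlap. Of the 1-day, 3-day and 7-day cells, 5.44%, 0.993% and 1.05% were above the 10th percentile of Ctrl cells. In UMIs, a cell held on average 91.4 of *AKR1B10* in Ctrl and 24.6, 16.1 and 11.7 after treatment. For the mean log-normalized level of the other 36 genes, Ctrl cells averaged 1.25 (SD 0.114 over cells), and 1-day, 3-day and 7-day cells 0.985, 0.788 and 0.743 (SD 0.135, 0.113 and 0.116). Cells below the 5th percentile of Ctrl on this mean were 70.7% at 1-day, 97.9% at 3-day (690 of 705) and 98.6% at 7-day (561 of 569).

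**Figure D4:**
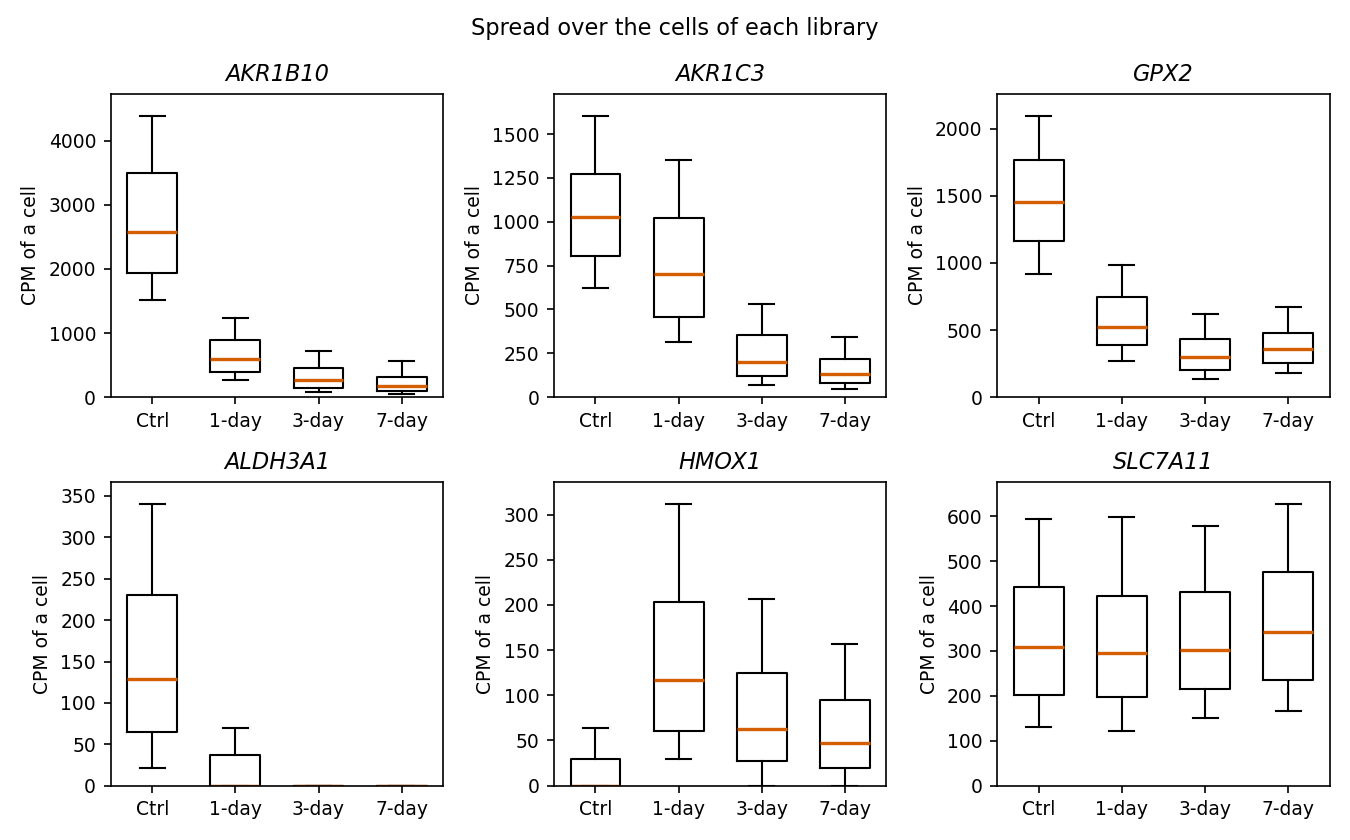
Distribution over cells of CPM per cell for selected members in each library, with boxes at the quartiles, a line at the median and whiskers at the 10th and 90th percentiles. The *AKR1B10* median went from 2576 CPM in Ctrl to 169 at 7-day, and the 7-day 90th percentile (560) lay below the Ctrl 10th percentile (1521).

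For scarcer genes the share of cells with at least 1 UMI is given, both as counted and after each cell was thinned to 18000 UMIs. *ALDH3A1* was detected in 90.4% of Ctrl cells and in 45.1%, 9.93% and 9.31% of 1-day, 3-day and 7-day cells (thinned 84.5%, 33.0%, 4.58% and 6.38%). *GSTA1* was detected in 82.1%, 33.1%, 6.24% and 2.64% of cells (thinned 72.9%, 23.1%, 3.4% and 0.729%). For both genes the share was lower in each treated library than in Ctrl, although the treated libraries had higher median UMIs per cell. From 3-day to 7-day the thinned share fell for *GSTA1* but rose for *ALDH3A1*. In Ctrl, the 10% of cells with the most *GSTA1* held 42.7% of its UMIs. *HMOX1* was detected in 34.8% of Ctrl cells, 93.3% at 1-day, 84.3% at 3-day and 79.8% at 7-day (thinned 25.2%, 85.6%, 66.9% and 59.6%), and the 10% of cells with the most held 55.2% of its UMIs in Ctrl and 29.7% at 1-day. The share of UMIs in the top 10% of cells depends on how scarce a gene is. For *GSTA1* it was 100% at 3-day and 7-day, so these shares do not separate level from spread over cells. *AKR1B10* was still found in 96.1% of 7-day cells (thinned 87.6%). The culture has no cell type that should lack these genes, so the share that free RNA in the droplets gives was not measured, and low shares such as that of *GSTA1* at 7-day can include it.

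Within a library, cells with more *AKR1B10* tended to have more of some other members. Pearson correlations were taken on log-transformed UMIs over thinned cells (844 Ctrl, 900 1-day, 677 3-day and 549 7-day cells). The correlation of *AKR1B10* with *AKR1C1* was 0.45, 0.49, 0.41 and 0.44, and with *AKR1C3* 0.38, 0.47, 0.46 and 0.45. It was 0.42, 0.30, 0.33 and 0.38 with *MGST1* and 0.35, 0.39, 0.34 and 0.29 with *NQO1*. Other members varied more between libraries, with 0.43, 0.44, 0.15 and 0.34 for *TXN*. The values were 0.43, 0.32, 0.16 and 0.33 for *PRDX1* and 0.39, 0.37, 0.16 and 0.23 for *CBR1*. With *GSTA1* it was 0.43 in Ctrl and 0.09 at 7-day, when almost no cell held a *GSTA1* UMI. *ALDH3A1*, with 0.02, 0.11, 0.14 and 0.27, was among the many members with a value near 0 in Ctrl, and *SLC7A11* had -0.18, -0.12, 0.02 and -0.08 to *AKR1B10*. Cells of a library share capture and composition, and the values are given as descriptions. Correlations with genes outside the group were not taken, so these values cannot be called particular to it.

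Beyond the 39 genes, 94 other genes of the NRF2, glutathione and detoxification systems were listed, also with earlier results of these cells known, and 71 of them had a mean of at least 5 CPM. Of the 71, 12, 14 and 17 were at least 2-fold below Ctrl at 1-day, 3-day and 7-day and 3, 5 and 5 above, with medians of -0.21, -0.37 and -0.39. Over all genes the shares were 8.52%, 5.25% and 4.91% below and 9.25%, 9.92% and 11.3% above. Of the 71, the lowest ratio at 7-day was that of *GSTA2*, the near paralog of *GSTA1*, which had 22.1 CPM in Ctrl, then 1.49 CPM, 0.124 CPM (4 UMIs) and 0.118 CPM (3 UMIs). Its 7-day log2 ratio was -7.55, with a wide counting interval of -9.83 to -5.99, and its mean passed 5 CPM through its Ctrl level alone. *NR0B1*, which encodes a nuclear receptor co-repressor, had 68.7, 8.38, 3.42 and 4.73 CPM (-3.86 at 7-day). *ALDH3B1* (-2.38), an aldehyde dehydrogenase gene, *ABCG2* (-2.34), which encodes a drug exporter, and *NQO2* (15.7 CPM at 7-day against 63.1 in Ctrl), the paralog of *NQO1*, completed the 5 lowest.

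The 5 highest of the 71 genes at 7-day included another aldehyde dehydrogenase. *ALDH1A3*, like *ALDH1A1* a gene of retinoic acid synthesis, was at 44.97 CPM in Ctrl, then 133, 96.8 and 127 CPM at 1-day, 3-day and 7-day (log2 ratio 1.57 at 1-day), all treated libraries being above Ctrl where those of *ALDH1A1* were below. *MAFK* and *MAFF* encode small MAF proteins, which pair with NRF2 or with BACH1. *MAFK* was at 14.9, 43.9, 38.5 and 38.2 CPM (1.36), and *MAFF* at 8.13, 13.7, 17.7 and 21.1 CPM (1.37). *SOD2*, which encodes mitochondrial superoxide dismutase, was at 32.6, 21.1, 32.8 and 89.6 CPM and was above Ctrl by more than 2-fold only at 7-day (1.46). *GSTM4*, of the mu class like *GSTM3*, was at 16.9, 16.4, 32.9 and 36.01 CPM (1.09). The limit of 5 CPM left out scarcer genes with higher ratios, and *CHAC1*, which encodes an enzyme that degrades glutathione, and *GPX8*, which encodes a glutathione peroxidase family member of the endoplasmic reticulum, are named after their values were seen. *CHAC1* was at 0.300 CPM in Ctrl (9 UMIs), then 1.06, 2.12 and 4.92 CPM, with a log2 ratio of 4.04 at 7-day (interval 3.07 to 5.20). *GPX8* was at 1.17, 1.12, 5.16 and 11.1 CPM, and its ratio at 7-day was 3.25 (interval 2.74 to 3.80).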

How the data were processed

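OVCA420 cells, untreated or treated with TGF-β1, were measured as 4 droplet-based 3′ scRNA-seq libraries. The authors deposited unnormalized UMI counts per gene and cell (GRCh38; the submitters' processing notes name Cell Ranger 2.0.1). The count matrices used here hold the first 941 Ctrl, 945 1-day, 712 3-day and 572 7-day cells in barcode order, of 3372, 2601, 2253 and 2484 listed. Cells were retained above 200 detected genes and up to 20% mitochondrial UMIs (29995994, 32949874, 32139723 and 25382817 UMIs in Ctrl, 1-day, 3-day and 7-day). Scrublet (scanpy 1.11.5) marked 38 doublets, retained except in 1 alternative. Phases used the lists of Seurat 5.3.0.

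Counts were summed per library to CPM, with exact Poisson intervals, exact conditional intervals of ratios and Clopper-Pearson intervals of shares (95%). With 1 library per time point no test was made. All 39 members, and the 5 lowest and 5 highest 7-day ratios among wider-list genes with a mean of at least 5 CPM, are named, and *CHAC1* and *GPX8* were added after their values were seen. Members and lists were chosen with earlier results of these data known. Calculations were tested on simulated data and ran in Python 3.11.15 and R 4.3.3. Positions and 3′ ends are from GENCODE 44, and promoters from RefSeq (GRCh38.p14). Alternatives covered mitochondrial limits, doublets, scaling, thinning, G1 cells, parts of the cells, fold and level limits, shared sequence and, chosen after seeing the data, leaving out cells with shared barcodes. The shared-sequence alternative left *AKR1C1*, *AKR1C2*, *AKR1C3* and *UGT1A6* out of the medians, but kept *SRXN1* and *GCLC*.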

Additional observations from a re-analysis of the deposited data

Results flagged for a closer look

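Genes whose treated libraries lay on both sides of Ctrl were singled out, and with 1 library per time point none of these differences was tested. *TXNRD1* was below Ctrl at 1-day and 3-day (log2 ratios -0.99 and -0.32) but above it at 7-day (0.18). *SLC7A11* had -0.0555 at 1-day, -0.0635 at 3-day and 0.0799 at 7-day, and its 1-day sign turned with median-of-ratios size factors, thinning and G1 cells and its 3-day sign with thinning and G1 cells, while the 7-day sign did not turn. *SOD2*, of the wider list, had -0.63 at 1-day and 1.46 at 7-day.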

How the results depend on the processing

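No paired analysis was possible because there was 1 library per time point, without replicate numbers. Over 15 central results, 134 alternative values moved by less than the limit set for them, 10 by more, and 0 changed direction. Over all alternative values, single genes included, these numbers were 1104, 253 and 14. The limit was 1.5 times for counts and the counting error for ratios of single genes. For shares it was a Clopper-Pearson interval over cells or over all genes, which is not counting error of UMIs. The medians over members had a limit of their own. For those medians it was an interval from the spread between genes, which is not counting error. Medians that stayed within it are thus little evidence of stability. A change of direction was possible only for log2 ratios and their medians, because counts of genes and shares of cells have no sign. For the counts and shares, the 0 was thus fixed beforehand and is no evidence of stability. Shifts of a member's ratio by more than 1.5 times were those at 7-day of *CBR3* (-3.95) and *GSTA4* (-2.89) in G1 cells and *GSTA1* (-8.23) in thinned cells. The log2 ratio of *AKR1B10* to Ctrl at 7-day, -3.44, was -3.50 with median-of-ratios size factors, -3.49 with thinned cells, -3.64 in G1 cells and -3.51 and -3.38 in the first and latter part of the cells, and that of *ALDH3A1*, -5.41, was -5.84 in G1 cells. With a fold of 1.5, 21 members in place of 12 were below Ctrl at 1-day, and 19.4% of all genes in place of 8.52%. Thinned shares of 7-day cells with a UMI were 87.6% for *AKR1B10*, 6.38% for *ALDH3A1* and 0.729% for *GSTA1*, since fewer UMIs were kept. Signs turned for *KEAP1* in G1 cells (0.21 at 1-day, 0.14 at 3-day), for *SLC7A11* at 1-day with median-of-ratios (0.0288), thinning (0.0119) and G1 cells (0.0700) and at 3-day with thinning (0.0124) and G1 cells (0.15), for *GSTA4* at 1-day with a mitochondrial limit of 10% (-0.0306), thinning (-0.24) and the latter part of the cells (-0.10), for *PRDX1* (0.0186) and *TKT* (0.00945) at 1-day with median-of-ratios, for *TKT* in G1 cells (0.00155), and for *UGT1A6* at 1-day in the latter part (0.0523), and the cause was not tested. The intervals hold no spread between cultures, the cells analysed are part of each library, and genes with few UMIs (*GSTA1* and *GSTA4* at 7-day) have wide intervals.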
